A study of Rattus norvegicus with 16 samples.

Results

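In rat hippocampus, 117 genes had a mean level in old sedentary rats that was at most 0.67 of the young sedentary mean, while the trained rats of the same age stood at least 1.5 times higher than the old sedentary rats and the young trained rats stayed between 0.8 and 1.25 of the young sedentary mean. They were chosen by those 3 ratios of group means and by a mean of at least 2 CPM over all 16 libraries. CPM is the count of a gene scaled to the same total count in every library. The 117 genes were 0.876% of the 13357 genes at or above 2 CPM, out of 32754 gene IDs in the count table. The ratios that chose them used all 4 groups, so the group means below are a description and carry no independent test.

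The rats were male Fischer-344, an inbred strain used in aging research, all of genotype WT per the labels. Sedentary and trained rats of both ages gave 4 groups of 4 rats, with 1 library for each rat in the count table. The protocol in the labels gives 4 rats per group but speaks of more libraries per condition than the 4 used here. Young rats were labelled 6 months and old rats 20 months old, and each went through exercise training or a sedentary period of 10 weeks. Every group also went through behavioral tests, and the hippocampus was taken 2 days after the last of them. Total counts per library ran from 8630396 to 14576687, and no lane or library batch is given in the sources used here.

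The hippocampus is a region of the brain needed for forming memories, and its tissue holds excitatory neurons, inhibitory neurons, glia and vessel cells together. In RNA from bulk tissue, fewer cells of a type and less RNA per cell cannot be told apart. The count table gives Ensembl IDs without symbols, and 0 of the IDs matched the reference gene table, so the 117 genes are described by their levels and not by name. For the same reason the marker genes of hippocampal and neighbouring cell types were not analysed here, and the tissue label was not checked against them.

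The low level was carried by 3 of the 4 old sedentary rats. Set against the young sedentary mean, the median gene of the set stood at 0.442 in old sedentary replicate 1, at 0.533 in replicate 2 and at 0.398 in replicate 4. In old sedentary replicate 3 it stood at 0.937, inside the range of the young sedentary libraries. The name "lowered only in old sedentary rats" therefore describes the group means and not every rat of that group.

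Counting genes gave the same picture. In replicate 1, 111 of the 117 genes were at or below 0.67 of the young sedentary mean, in replicate 2 there were 99 and in replicate 4 there were 113, against 4 in replicate 3. Over all 13357 genes the shares at or below 0.67 were 7.25%, 4.62% and 8.46% in replicates 1, 2 and 4, and 1.44% in replicate 3. For 88 genes (75.2%) replicates 1, 2 and 4, and not replicate 3, were at or below the limit. Counting any 3 of the 4 libraries, these 88 included, there were 89 genes. In 3 genes all 4 libraries were at or below the limit, in 23 genes 2 libraries and in 2 genes 1 library. Replicate 3 had the highest level of its group in 113 genes, lay within the young sedentary range in 96 and was at or above the young sedentary mean in 37. These positions of replicate 3 were not counted over all genes.

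**Figure D1:**
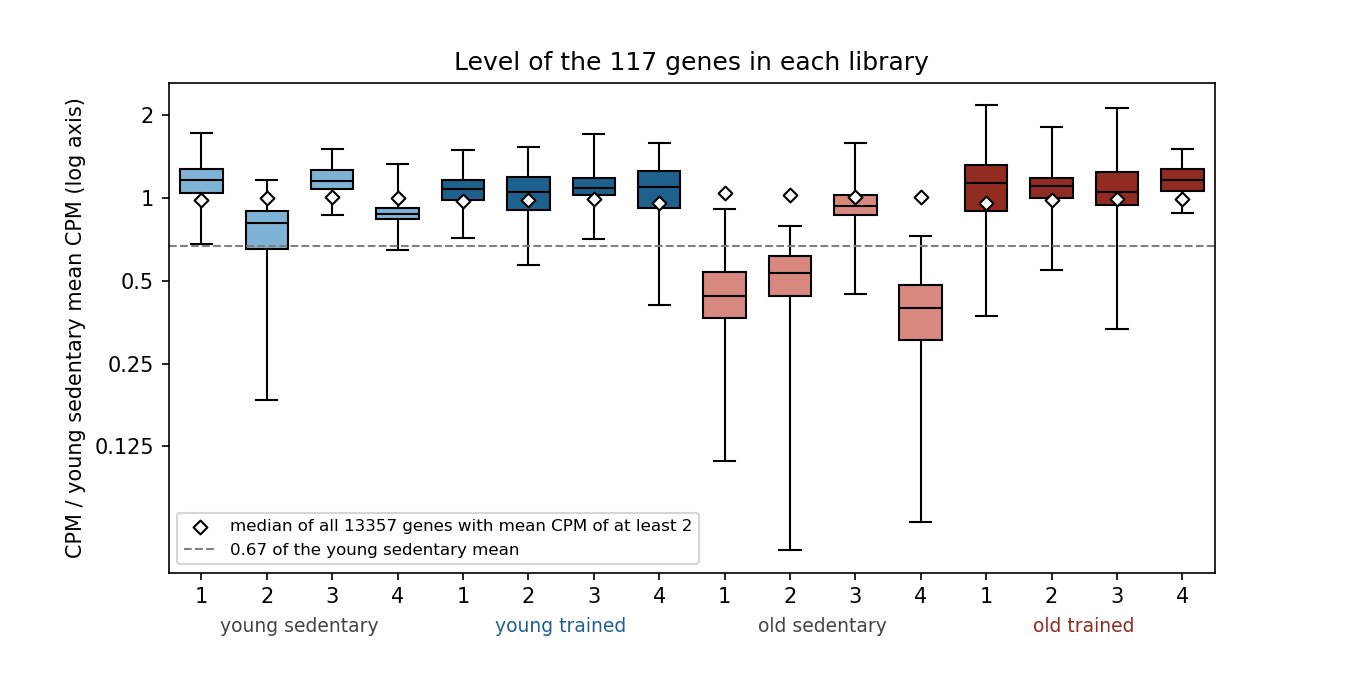
Level of the 117 genes in each of the 16 libraries, as CPM divided by the young sedentary mean CPM on a log axis; the box spans the quartiles, the line is the median and the whiskers reach the lowest and highest gene. Diamonds mark the median of all 13357 genes with a mean of at least 2 CPM. Old sedentary replicates 1, 2 and 4 have medians of 0.442, 0.533 and 0.398, while replicate 3 stands at 0.937.

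Summed over the 117 genes, the level was 14811, 11153, 14733 and 11289 CPM in young sedentary replicates 1 to 4. In young trained rats it ran from 14104 to 15649 CPM and in old trained rats from 12960 to 14848 CPM. In old sedentary rats the sums were 6283, 7644, 11828 and 5376 CPM in replicates 1 to 4. Replicates 1, 2 and 4 lay below all 12 libraries of the other groups, and replicate 3 lay above 2 young sedentary libraries. Old sedentary rats had a mean sum of 7783 ± 2853 CPM (SD, n = 4), which became 6434 ± 1141 CPM (SD, n = 3) when replicate 3 was set aside. The mean sum of young sedentary rats was 12996 ± 2051 CPM (SD, n = 4). Young trained rats averaged 14625 ± 710 CPM (SD, n = 4), and for old trained rats the mean sum was 14079 ± 798 CPM (SD, n = 4).

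Depth was alike in the 4 old sedentary libraries. Their totals lay between 10682644 and 11425389 counts, genes with a count numbered 18759 to 18958, and the 100 most abundant genes held 21.5% to 22.5% of the counts. The median of all 13357 genes was 1.04, 1.03, 1.01 and 1.01 of the young sedentary mean in old sedentary replicates 1 to 4. RNA quality and the dissection of each rat were not tested.

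The spread of single genes showed the same libraries. The median coefficient of variation of the 117 genes was 42.2% in old sedentary rats and 22.2% without replicate 3. It was 22.9% in young sedentary, 11.7% in young trained and 13.8% in old trained rats, so the genes varied most in the sedentary groups. Over all 13357 genes it was 12.8% in old sedentary, 9.13% in young sedentary, 9.39% in young trained and 9.63% in old trained rats.

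In 18 of the 117 genes (15.4%) all 4 old sedentary libraries lay below all 4 young sedentary ones, beside a background of 2.61% of the 13357 genes. All 4 old sedentary libraries lay below all 4 old trained ones in 59 genes (50.4%), beside 6.99%. They lay below the other 12 libraries together in 11 genes (9.40%), beside 0.846%. When replicate 3 was set aside, replicates 1, 2 and 4 lay below those 12 libraries in 95 genes (81.2%), beside 6.63%. The rule used these groups, so the backgrounds are given for scale and nothing is read from the excess.

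**Figure D2:**
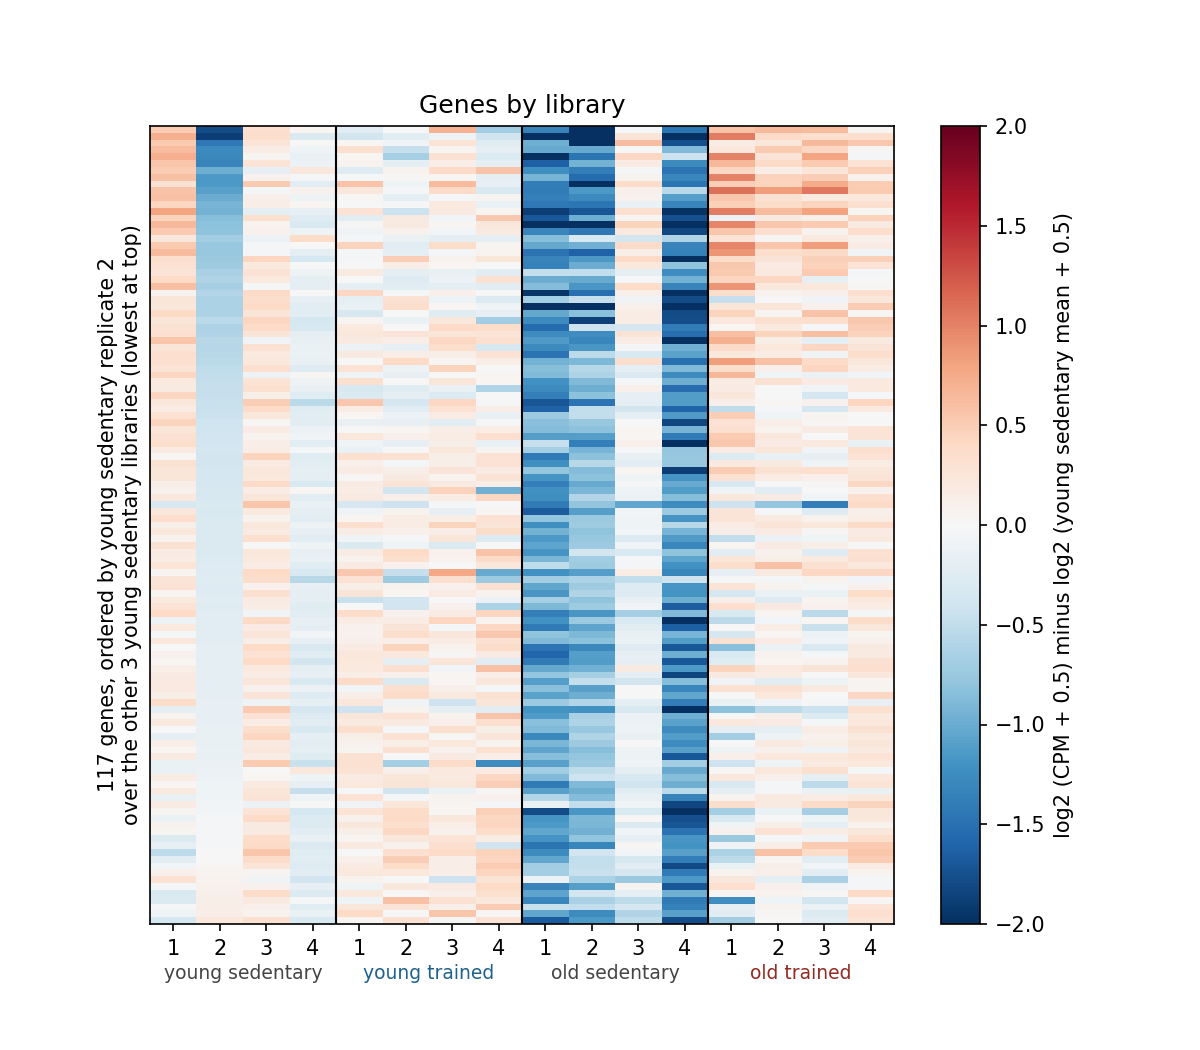
The 117 genes (rows) in the 16 libraries (columns), as the difference in log2 (CPM + 0.5) from the young sedentary mean, with the colour scale ending at 2 in both directions. Rows are ordered by young sedentary replicate 2 over the other 3 young sedentary libraries, lowest at the top. Old sedentary replicates 1, 2 and 4 are blue in nearly every row, replicate 3 is not, and the top rows are also blue in young sedentary replicate 2.

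Whether a library left out of the choice would show the same level was read by choosing the genes again from 15 libraries. Chosen without old sedentary replicate 1, 87 genes met the criteria, and their median in that library was 0.442 of the young sedentary mean, with 73 of them (83.9%) at or below 0.67. Without replicate 2, 112 genes were chosen and their median there was 0.571, with 83 (74.1%) at or below 0.67. Without replicate 4, 66 genes were chosen and their median there was 0.397, with 60 (90.9%) at or below 0.67. Each of these rats had a low median in genes chosen without it. The young sedentary mean in these ratios did enter the choice, so the readings are no independent test. The shares over all genes in the same libraries were 7.33%, 4.67% and 8.54%.

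Replicate 3 read differently. Without it the criteria were met by 262 genes, of which 116 were among the 117. Their median in replicate 3 was 0.969 of the young sedentary mean, beside 1.00 over all genes, and 3 of the 262 (1.15%) were at or below 0.67. The trained libraries, each left out in turn, had medians from 1.02 to 1.16. These readings are descriptions without a p-value, because the other libraries of all 4 groups still entered the choice.

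**Figure D3:**
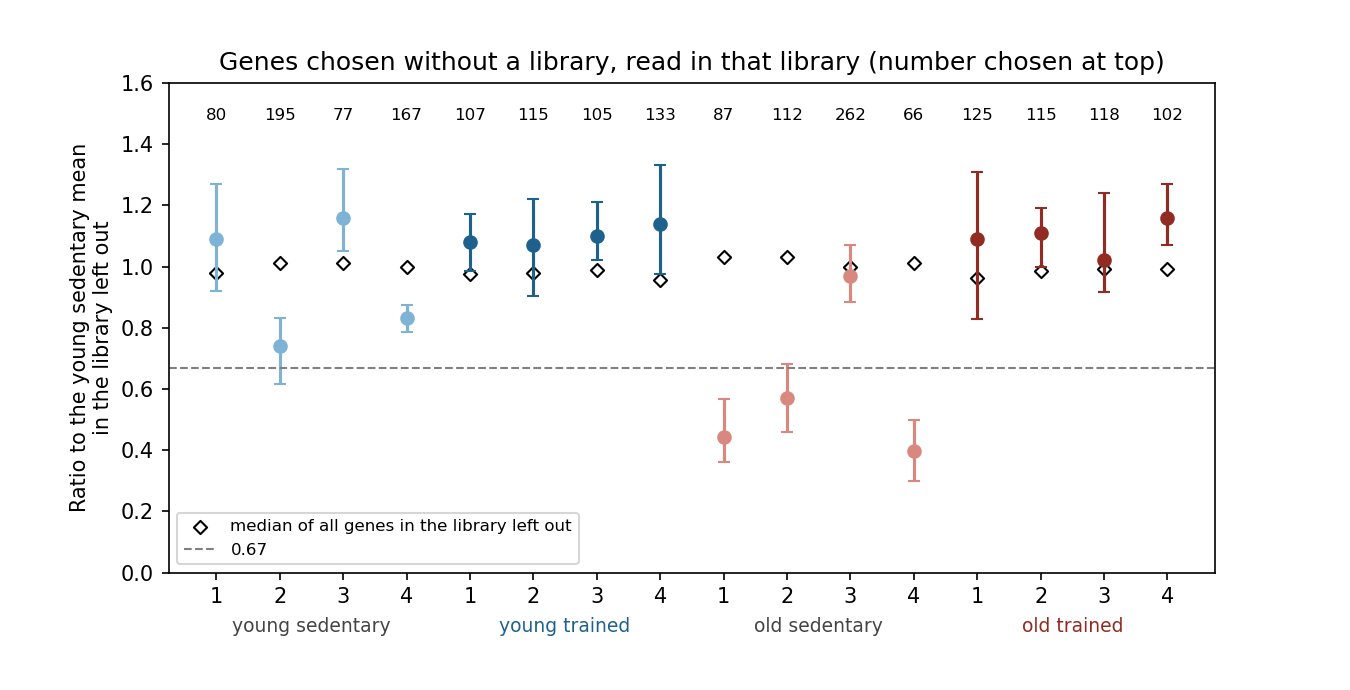
Genes chosen from 15 libraries and read in the library left out: points are medians of the ratio to the young sedentary mean, bars the quartiles, numbers at the top the genes chosen, and diamonds the median of all genes in that library. Old sedentary replicates 1, 2 and 4 read 0.442, 0.571 and 0.397, and replicate 3 reads 0.969.

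The young sedentary rats were not uniform either. The median gene of the set stood at 1.16 and 1.15 of the group mean in replicates 1 and 3, and at 0.813 and 0.875 in replicates 2 and 4. Replicate 2 was the lowest of its group in 74 genes and replicate 4 in 33, and replicate 1 or 3 was the highest in 112. These ranks were not counted over all genes. At or below 0.67 of their own group mean were 33 genes (28.2%) in replicate 2, 1 gene in replicate 4 and none in replicates 1 and 3. Over all genes with a mean of at least 2 CPM the shares were 1.97%, 1.36%, 1.83% and 0.292% in replicates 1 to 4. Read in genes chosen without it, replicate 2 had a median of 0.739 over 195 genes, with 69 (35.4%) at or below 0.67, beside 2.29% of all genes. Replicate 4 had a median of 0.833 over 167 genes. The sets chosen without replicate 1 or 3 were smaller, with 80 and 77 genes, and read 1.09 and 1.16 in those libraries.

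The old sedentary to young sedentary ratio ran from 0.386 up to the limit of 0.67 with a median of 0.597, and 16 genes were at or below 0.5 while 54 were above 0.6. Just inside the limit stood genes at 0.669 and 0.667, and just outside it, among genes that met the other criteria, genes at 0.671. With replicate 3 set aside the ratio had a median of 0.472 and ran from 0.156 to 0.639, so every one of the 117 genes also met the limit without that rat. The old trained to old sedentary ratio had a median of 1.87 and reached 3.68, and it was at least 2 in 36 genes.

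The set was not made of rare transcripts. Its mean level ran from 2.15 to 1338 CPM with a median of 38.6 CPM, beside 27.4 CPM over all 13357 genes. At least 100 CPM was reached by 31 genes (26.5%), beside 16.4% of all genes, and 25 genes (21.4%) were under 10 CPM, beside 24.3%. CPM is not scaled by transcript length, so these levels rank counts and not molecules.

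ENSRNOG00000030016 had the lowest old sedentary to young sedentary ratio of the set, 0.386. Its level was 49.7, 27.3, 56.4 and 36.6 CPM in young sedentary replicates 1 to 4 and 38.1, 54.6, 43.8 and 40.2 CPM in young trained replicates 1 to 4. In old sedentary rats it was 4.68, 8.84, 45.8 and 6.34 CPM, and in old trained rats 50.1, 50.3, 45.1 and 60.4 CPM. Replicates 1, 2 and 4 of the old sedentary group were far below every other library, and replicate 3 lay among the libraries of the other groups. The old sedentary mean was 16.4 ± 19.7 CPM (SD, n = 4), and 6.62 ± 2.09 CPM (SD, n = 3) without replicate 3, against 42.5 ± 13.1 CPM (SD, n = 4) in young sedentary rats. Its log2 fold change between old and young sedentary rats was -1.40 (SE 0.53), which did not pass edgeR's quasi-likelihood test (adjusted p = 0.156). Without replicate 3 it was -2.72 (edgeR adjusted p = 2.97e-05).

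ENSRNOG00000030016 was called higher in old trained than in old sedentary rats, by 1.71 on the log2 scale (SE 0.52, edgeR adjusted p = 0.0289). That call did not hold without old sedentary replicate 1, 2 or 4 (adjusted p = 0.0704, 0.0843 and 0.0827 in edgeR), when the log2 fold change was 1.40, 1.49 and 1.44. It did not hold either without old trained replicate 1, 2 or 4 (adjusted p = 0.0516, 0.0561 and 0.0651 in edgeR), although the log2 fold change was then 1.72, 1.73 and 1.63. Without old sedentary replicate 3 the log2 fold change was 3.03 (edgeR adjusted p = 4.10e-06).

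ENSRNOG00000025584 was the most abundant gene of the set. It stood at 1493, 1455, 1446 and 1200 CPM in young sedentary and 1623, 1611, 1535 and 1887 CPM in young trained replicates 1 to 4. In old sedentary rats it stood at 871, 1027, 1108 and 524 CPM, and in old trained rats at 1472, 1497, 1189 and 1475 CPM. All 4 old sedentary libraries, replicate 3 included, lay below all 12 others, and replicate 3 was the nearest to them. Its log2 fold change was -0.70 (SE 0.17, edgeR adjusted p = 0.0523) between old and young sedentary rats and 0.74 (SE 0.17, edgeR adjusted p = 0.00615) between old trained and old sedentary rats. Without old sedentary replicate 3 the first was -0.84 (edgeR adjusted p = 0.00406). This gene had a ratio of 0.631, while ENSRNOG00000030016 had 0.386. Between old and young sedentary rats the SE of the log2 fold change was 0.17 here and 0.53 in ENSRNOG00000030016. The old sedentary means were 883 ± 258 CPM and 16.4 ± 19.7 CPM (SD, n = 4). Without replicate 3 they were 808 ± 257 CPM and 6.62 ± 2.09 CPM (SD, n = 3).

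**Figure D4:**
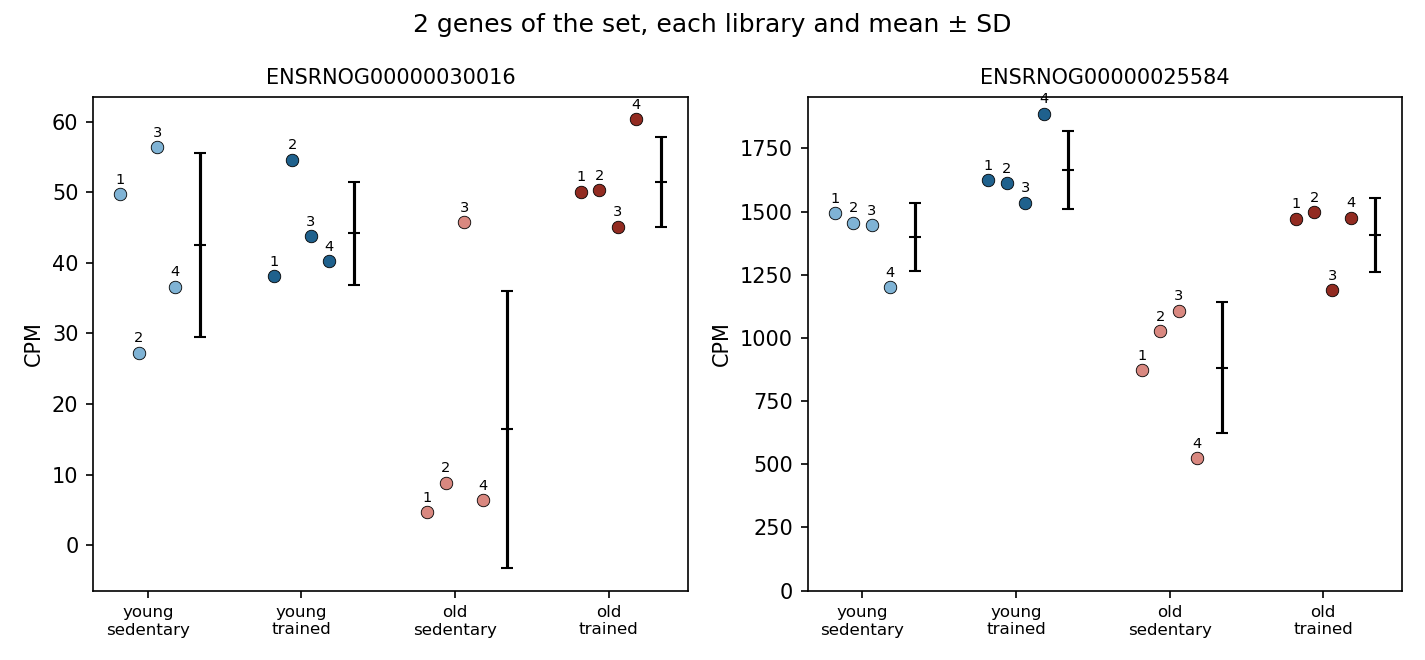
CPM of 2 genes of the set in each library, numbered by replicate, with the group mean and SD to the right of the points. For ENSRNOG00000030016 old sedentary replicate 3 stands at 45.8 CPM while the others stand between 4.68 and 8.84 CPM, and for ENSRNOG00000025584 all 4 old sedentary libraries lie below every other library.

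A fit of all 15035 genes that passed the filter on low counts put these differences against the spread between rats. All 117 genes passed that filter. Between old and young sedentary rats, edgeR's quasi-likelihood test called 8 of the 117 genes lower at an adjusted p below 0.05 (6.84%), where 0.459% of all genes tested were called lower. The median log2 fold change was -0.78 with a median standard error of 0.26, beside 0.01 and 0.13 over all genes. At an unadjusted p below 0.05, 101 genes were lower, beside 10.4% of all genes. The contrast was used to choose the genes, so these counts describe how much of the chosen difference exceeds the spread.

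The log2 fold changes of the 8 called genes ran from -0.62 to -1.27 with edgeR adjusted p from 0.0138 to 0.0492. Their median in replicate 3 was 0.784 of the young sedentary mean and their highest 0.897, while the other 109 genes had a median of 0.952 and ran from 0.447 to 1.58. In replicates 1, 2 and 4 together the medians were 0.450 for the 8 and 0.473 for the 109. A small spread within the group is part of what lets a gene be called, so the level of replicate 3 in the 8 genes is no separate finding. The number called moved with the libraries kept, for the set and for all genes together. It was 107 without old sedentary replicate 3, when 7.66% of all genes were called lower. Without old sedentary replicates 1, 2 and 4 it was 0, 2 and 1, beside 0%, 0.172% and 0.0396% of all genes. Leaving out young sedentary replicate 1 or 3 left 1 gene of the set in each case, which was the 1 gene called lower among all genes tested. It was 5 when young trained replicate 1 was left out and 4 when old trained replicate 2 was, beside 0.231% and 0.211% of all genes.

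Between old trained and old sedentary rats, 105 of the 117 genes (89.7%) were called higher in the trained rats, beside 11.5% of all genes tested. The median difference was 0.97 on the log2 scale, and the median standard error was 0.26. This comparison shares the old sedentary libraries with the one before it, and the genes were chosen on both ratios. The number called was 68 when old sedentary replicate 1 was left out and 113 when replicate 3 was, beside 8.15% and 14.4% of all genes.

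Training in young rats left the set near its sedentary level, as the rule required. None of the 117 genes was called by edgeR between young trained and young sedentary rats, where 6.78% of all genes were called higher and 10.3% lower. At an unadjusted p below 0.05, 2 genes were higher and 0 lower, beside 14.5% and 18.8% of all genes, and the median log2 fold change was 0.19. Of the 117 genes, 95 had a higher estimate in trained rats. That is a direction of estimates and not of called changes. Over all genes tested the median log2 fold change was -0.02, and higher estimates were not counted.

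The criterion on young trained rats removed most candidates. Of 416 genes at or below 0.67 of the young sedentary mean in old sedentary rats, 357 were also at least 1.5 times higher in old trained than in old sedentary rats. Among those 357, 218 (61.1%) were above 1.25 of the young sedentary mean in young trained rats and 22 were below 0.8, which left the 117 (32.8%). Most genes with a low old sedentary mean and a high old trained mean thus also stood higher in young trained than in young sedentary rats. The share above 1.25 was not counted over all genes. The young sedentary mean was the divisor for both the old sedentary and the young trained ratio, so this share is a description.

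The old trained level was set against both young groups, ratios on which the rule placed no direct limit. The old trained mean of the 117 genes was between 0.8 and 1.25 of the young sedentary mean in 88 genes (75.2%), above 1.25 in 26 (22.2%) and below 0.8 in 3 (2.56%). Over all 13357 genes the shares were 84.9%, 4.48% and 10.6%. Against the young trained mean, 86 genes lay between those limits, 24 (20.5%) above and 7 (5.98%) below, beside 13.4% of all genes above and 7.13% below. All of these group means entered the rule through other ratios, so the shares are not independent of the choice of genes. The old trained to young sedentary ratio had a median of 1.12 and a highest value of 1.90. In edgeR's test of old trained against young sedentary rats 0 of the 117 genes were called, where 0.891% of all genes were called higher and 3.52% lower. At an unadjusted p below 0.05, 2 genes were higher and 0 lower, beside 7.06% and 10.3% of all genes, the DESeq2 Wald test called 0 and limma voom called 2, where these tools called 6.34% and 12.5% of all genes. Between old and young trained rats 0 were called, where 3.33% of all genes were called higher and 1.65% lower. There 1 gene was higher and 4 were lower at an unadjusted p below 0.05, beside 12.9% and 9.74% of all genes, and the DESeq2 Wald test and limma voom each called 0 of the set, where they called 8.27% and 8.55% of all genes.

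The interaction compares the training difference between ages. The rule asked for a high old trained to old sedentary ratio and a young trained level near the young sedentary one, so a positive interaction was fixed by the choice of genes, and all 117 estimates were positive. The counts are given for scale and nothing is read from them. edgeR called 0 of the 117 genes, as it did over all 15035 genes, where 0% were called in either direction, with a lowest adjusted p of 0.254. At an unadjusted p below 0.05, 79 genes (67.5%) passed with a positive estimate, beside 7.74% of all genes. The DESeq2 Wald test and limma voom each called 0 of the 117, beside 0.293% and 0% of all genes. The median interaction was a log2 difference of 0.82, and its median standard error was 0.36. Without old sedentary replicate 3 edgeR called 70 of the 117, beside 3.84% of all genes.

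The genes of the set also differed in their level in young sedentary replicate 2 and in the trained groups. In the 33 genes at or below 0.67 of the group mean in that library, the old trained to young trained ratio had a median of 1.29, and 30 of the 33 were higher in old than in young trained rats. In the other 84 genes the median was 0.968, and 35 were higher in old trained rats. Over all 13357 genes the median of that ratio was 1.01, and the share higher in old trained rats was not counted. The same 33 genes had a median of 1.09 of the young sedentary mean in old sedentary replicate 3, while the 84 had 0.898. In old sedentary replicates 1, 2 and 4 together the medians were 0.393 and 0.493. The genes that were low in young sedentary replicate 2 thus had the lower median in those 3 old sedentary rats, and the higher median in old sedentary replicate 3 and in the old to young trained ratio. The rule capped the mean of the old sedentary libraries, so genes higher in replicate 3 had to be lower in the others to be chosen. The opposite shifts within that group are therefore in part fixed by the choice of genes.

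Across the 117 genes, the level in young sedentary replicate 2 over the other 3 young sedentary libraries and the old trained to young trained ratio had Pearson r = -0.747 and Spearman rho = -0.724. These 2 ratios have no library in common, but the rule put limits on group means that enter both. Genes are not independent replicates, so no p-value is given, and over all 13357 genes the values were -0.204 and -0.223. The level in old sedentary replicate 3 over the other 3 old sedentary libraries had r = -0.560 and rho = -0.511 with the same young sedentary ratio, beside -0.246 and -0.355 over all genes.

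**Figure D5:**
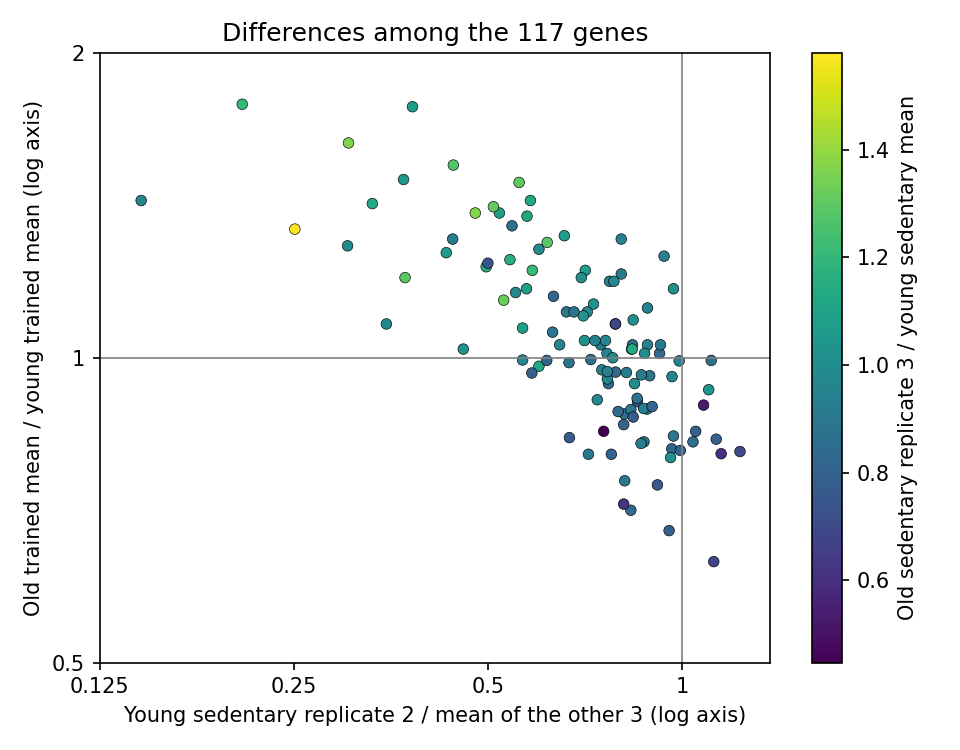
Each point is 1 of the 117 genes: young sedentary replicate 2 over the mean of the other 3 young sedentary libraries (horizontal, log axis) against the old trained over the young trained mean (vertical, log axis), coloured by old sedentary replicate 3 over the young sedentary mean. Genes to the left lie higher (Spearman rho = -0.724) and are mostly of lighter colour.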

How the data were processed

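The authors deposited 1 table of raw counts per Ensembl gene, 4 libraries in each of 4 groups. Libraries were made from poly(A) RNA, per the labels' protocols. Tools listed in the submitters' processing notes include TopHat2 2.1.1 for the build Rnor_6.0, HTSeq and DESeq2. Whether counting used strand was not stated there, so genes that overlap or have near-identical copies are uncertain.

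CPM was the count over the column sum. Tests used edgeR 4.0.16 in R 4.3.3: filterByExpr by group, TMM scaling, 1 mean per group over 16 libraries (12 residual degrees of freedom), robust glmQLFit, glmQLFTest, 2-sided, Benjamini-Hochberg adjustment over 15035 genes, called below 0.05. The standard error was the log2 fold change over the square root of F. DESeq2 1.42.0 and limma 3.58.1 were alternatives, with other filters and scalings, a replicate block, and each library left out. The fit and the rule were tested on simulated data.

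The genes, the 40 gene lists and the alternatives were chosen with earlier results of these data known. The lists, marker lists and promoter motifs were not used, because no ID matched a symbol. The rule for named genes asked for a symbol. That criterion was dropped, and the gene of lowest old to young sedentary ratio and the most abundant gene were named. The labels call the libraries separate biological replicates. Within a group, all pairs of libraries differed by more than counting noise (lowest chi-square per degree of freedom 4.51).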

Additional observations from a re-analysis of the deposited data

Results flagged for a closer look

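In sets of 4 values per group, a library was noted where its gap to the nearest other exceeded Dixon's critical share of the group's range. Chance marks about 5% of independent sets. Of 20 sets examined, which share libraries and genes, 5 held such a value. In old sedentary replicate 3, ENSRNOG00000030016 stood at 45.8 CPM, far above the others of its group, and 4 of the 117 genes were at or below 0.67 of the young sedentary mean, far fewer than in the others. In young sedentary replicate 2, 33 genes were at or below that limit, far more than in its group. ENSRNOG00000025584 stood far below its group in young sedentary replicate 4, at 1200 CPM, and in old trained replicate 3, at 1189 CPM. Taken gene by gene, old sedentary replicate 3 lay far above its group in 24 of the 117 genes (20.5%), while no other library did so in more than 4. How often it did so over all genes was not examined, so whether the count is particular to the set is not known.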

How the results depend on the processing

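The size of the set was 117 as defined, and within 1.5 times that under TMM-scaled sizes (134, of which 106 shared), group medians (165, 100 shared), geometric means (127), a minimum of 1 CPM (141) and a minimum of 5 CPM (103). With ratio limits of 0.5 and 2 it was 10. With each library left out it ran from 66 to 262. The number of genes called lower in old against young sedentary rats, 8 in edgeR (0.459% of all genes), was 73 with the DESeq2 Wald test (3.62% of all genes) and 37 with limma voom (1.53%), so the rise was shared by all genes. With each library left out it ran from 0 to 107, beside 0% to 7.66% of all genes. For old trained against old sedentary rats the leave-one-out counts ran from 68 to 113, beside 8.15% to 14.4% of all genes. For the interaction they ran from 0 to 70, beside 0% to 3.84%. For old trained against young sedentary rats they ran from 0 to 1, beside 1.74% to 6.03%, and limma voom gave 2, beside 12.5%. For old against young trained rats every alternative that was run gave 0, beside 1.56% to 8.55% of all genes. No direction reversed for the 2 named genes. Without a filter on low counts ENSRNOG00000030016 no longer passed for old trained against old sedentary rats (edgeR adjusted p = 0.0650), with a log2 fold change of 1.72 against 1.71.

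The labels give the groups the same replicate numbers but do not say that a number marks a shared litter, batch or day. Deviations of same-numbered libraries from their group means had correlations from -0.245 to 0.477 (median 0.0971), and those of other numbers from -0.533 to 0.389 (median -0.0234). Since not every pair was over 0.1, the numbers were not taken to pair the samples. That 9 of 16 libraries were closest to one of their own number is a hint of shared variation from the data, not from the design. With the replicate block 46 genes were called lower in old against young sedentary rats, when 1.90% of all genes were, ENSRNOG00000025584 passed there (edgeR adjusted p = 0.0419), and the counts for the other comparisons and the interaction that were run with it moved by less than 1.5 times. The planned fit with 1 surrogate variable was not run, because the variable sva returned was 0 in all but 1 library. Whether depth limited the calls was not tested; the set had a median of 38.6 CPM in libraries of at least 8630396 counts.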

Other observations

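The 117 genes were left out and the largest shared pattern of variation within groups was taken from the other 14918 genes, as the first component of the deviations from group means. It held 21.7% of that variance. Old sedentary replicate 3 scored 0.64 and replicates 1, 2 and 4 scored -0.24, -0.24 and -0.16. Young sedentary replicates 1 and 3 both scored 0.29, and replicates 2 and 4 scored -0.39 and -0.19. The mean log2 deviation of the 117 genes had the same sign in these 8 libraries: 0.85 in old sedentary replicate 3 and -0.30, -0.09 and -0.46 in replicates 1, 2 and 4, and 0.26, -0.37, 0.25 and -0.14 in young sedentary replicates 1 to 4. In young trained replicates 1 to 4 the scores were 0.12, -0.21, 0.16 and -0.08 and the deviations 0.01, -0.06, 0.03 and 0.02, so replicate 4 had opposite signs and replicate 2 scored near old sedentary replicate 1 with a much smaller deviation. In the 4 old trained libraries the scores lay between -0.05 and 0.05 and the deviations between -0.08 and 0.07.

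The 60 genes that met the mirrored criteria, higher in old sedentary rats, were at or above 1.5 of the young sedentary mean in 50, 50 and 52 genes in old sedentary replicates 1, 2 and 4 and in 5 genes in replicate 3. The 218 genes that missed the set because young trained rats stood above 1.25 were at or below 0.67 in 212, 197 and 214 genes in replicates 1, 2 and 4 and in 6 genes in replicate 3. These sets were chosen with the same libraries, so their counts are descriptions. The share of all genes at or above 1.5 in each library was not counted.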
